A study of Rattus norvegicus with 21 samples.

Results

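Lox, Col1a1, Col1a2, Col3a1, Pdgfrb, Des, Lrat and Timp1, 8 genes of hepatic stellate cells and of the fibrous matrix they lay down, were followed in rat liver after short exposure to 2-ethylhexyl diphenyl phosphate, an organophosphate ester. The 8 genes were chosen by name, with earlier results of these data known. Each was read from the probe sets (groups of short array probes for 1 transcript) annotated to its symbol alone. They were 8 of the 14218 genes measured and held 13 of the 31099 probe sets, and a gene with several probe sets was represented by the one with the highest mean over all arrays. Male Harlan Sprague Dawley rats received the compound, called EHDP in the study's design text and EDHP in its sample labels, in corn oil by gavage once a day for 4 days. The left lobe of the liver was taken on day 5, and total RNA was hybridised to Affymetrix arrays. There were 6 vehicle arrays, although the treatment protocol gives 5 rats for that group, and 3 arrays at each of 61.2, 122.5, 244.6, 489.2 and 978.5 mg/kg. All groups were of the same sex and stock and all received corn oil. A level below is a log2 signal, on which a difference of 1 is a doubling of signal. Levels of different genes are not comparable, because probes differ in brightness.

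Stellate cells lie between hepatocytes and the sinusoid and store vitamin A as retinyl esters, which Lrat (lecithin retinol acyltransferase) forms. Des encodes desmin, an intermediate filament protein used to recognise these cells in rodent liver, and Pdgfrb the beta receptor for platelet-derived growth factor (PDGF), which drives their division and migration. On injury they turn into myofibroblasts and make the fibrillar collagens, of which Col1a1 and Col1a2 encode the chains of type I and Col3a1 the chain of type III. Lox, lysyl oxidase, crosslinks secreted collagen and elastin, and Timp1 inhibits the metalloproteinases that break matrix down. Portal fibroblasts, smooth muscle and some other cells express several of these genes too.

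The promoters of Col1a2 and Lrat are shown because these were the members with the highest Pearson r with Col3a1 over all 21 arrays. Promoter sequence was matched for 4 of the 8 genes in the RefSeq promoter table of assembly GRCr8. That table gave Col1a2, Timp1, Des and Lrat; Lox, Col1a1, Col3a1 and Pdgfrb were not matched. Each sequence below is the 250 bases before the annotated start of transcription, 5′ to 3′ on the gene's strand. Capitals mark matches on either strand to the CCAAT box (CCAAT), the TATA box (TATAAA), the GC box (GGGCGG) or the AP-1 element (TGANTCA), and no matches overlap here. The Col1a2 sequence is chr4:33518307-33518556 on the plus strand and the Lrat sequence is chr2:170571213-170571462 on the minus strand.
Col1a2: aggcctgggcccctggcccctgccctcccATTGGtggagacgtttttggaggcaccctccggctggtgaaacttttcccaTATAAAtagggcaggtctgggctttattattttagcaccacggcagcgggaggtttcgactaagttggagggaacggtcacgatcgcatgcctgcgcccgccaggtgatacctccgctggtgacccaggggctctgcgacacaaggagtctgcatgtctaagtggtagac
Lrat: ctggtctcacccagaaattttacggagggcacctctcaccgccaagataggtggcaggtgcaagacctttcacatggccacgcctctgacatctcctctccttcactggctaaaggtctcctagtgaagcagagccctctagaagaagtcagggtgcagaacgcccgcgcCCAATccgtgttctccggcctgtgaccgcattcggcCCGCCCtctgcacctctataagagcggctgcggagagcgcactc
The Col1a2 window held a CCAAT match on the opposite strand, 221 to 217 bases before the start, and a TATAAA match on the gene's strand, 170 to 165 bases before it. In the Lrat window a CCAAT match lay on the gene's strand, 80 to 76 bases before the start, and a GGGCGG match on the opposite strand, 44 to 39 bases before it. Neither held the AP-1 element. Among 33469 promoters of the same length, 34.0% held the CCAAT box, 12.9% the TATA box, 30.5% the GC box and 6.34% the AP-1 element, so the matches are common and describe the letters only.

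The arrays were alike in overall level, with medians between 6.33 and 6.41. The tissue read as liver, since the hepatocyte genes Alb, Ttr and Apoa1 had mean vehicle levels of 15.34, 14.86 and 14.09. Vehicle replicate 6 and 489.2 mg/kg replicate 1 correlated least with the other arrays, with mean r of 0.987 and 0.988 against 0.989 to 0.994 for the rest. Differences that rest on these arrays are therefore given with and without them. No scan date or other batch was used here. In whole liver, fewer cells of a type and less RNA per cell cannot be told apart.

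Lox and Pdgfrb fell with dose. Col3a1 had a small downward slope from vehicle to the top dose, whose call was lost in many refits. Col1a1, Col1a2, Timp1, Des and Lrat passed no test on their brightest probe sets. At 978.5 mg/kg Lox was lower than in the vehicle group by 4.41-fold and Pdgfrb by 1.66-fold, the latter on 1 of its 3 probe sets. No member rose at any dose. Differences were tested with limma on all 14218 genes, with Benjamini-Hochberg adjustment at 0.05, and the 5 dose comparisons share the same vehicle arrays.

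Lox, the crosslinking enzyme, had the largest change of the 8. Its vehicle levels ran from 5.94 through a median of 6.95 to 8.89, with vehicle replicates 2 and 6 the highest. The arrays read 6.50, 6.15 and 7.38 at 61.2 mg/kg and 6.93, 5.88 and 6.69 at 122.5 mg/kg. These lay within the vehicle range except 1 array at 122.5 mg/kg. At 244.6 mg/kg they read 5.52, 6.44 and 5.10, with 2 of 3 below every vehicle array. They read 5.05, 5.56 and 4.49 at 489.2 mg/kg and at 978.5 mg/kg 4.98, 5.34 and 4.95, and at these doses no array overlapped the vehicle group. Of these, 4.49 lay under 4.75, the 20th percentile of all levels, so the folds there rest on a dim signal.

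The Lox difference from vehicle was -0.55 ± 0.51 (SE; limma adjusted p = 0.956) at 61.2 mg/kg and -0.73 ± 0.51 (0.903) at 122.5 mg/kg. It was -1.54 ± 0.51 at 244.6 mg/kg, a 2.90-fold lower signal that missed the threshold (adjusted p = 0.129). Lox fell at 489.2 mg/kg by 4.58-fold (-2.20 ± 0.51, adjusted p = 0.0208). It fell at 978.5 mg/kg by 4.41-fold (-2.14 ± 0.51, 95% interval -3.20 to -1.08, adjusted p = 0.0106). Ranked by size, these were the 4th largest fall of 14218 genes at 489.2 mg/kg and the 7th at 978.5 mg/kg. The slope was -0.47 ± 0.08 per dose step from vehicle as step 0 to the top dose as step 5 (adjusted p = 0.000483). The call at 489.2 mg/kg was lost without replicate 1 (adjusted p = 0.107) or replicate 3 (0.109) of that dose, and without vehicle replicate 6 and 489.2 mg/kg replicate 1 together (-1.87, adjusted p = 0.0982). Its call at 978.5 mg/kg was lost without replicate 3 of that dose (-2.07, adjusted p = 0.0553), while the slope passed in every refit that tested the gene.

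**Figure D1:**
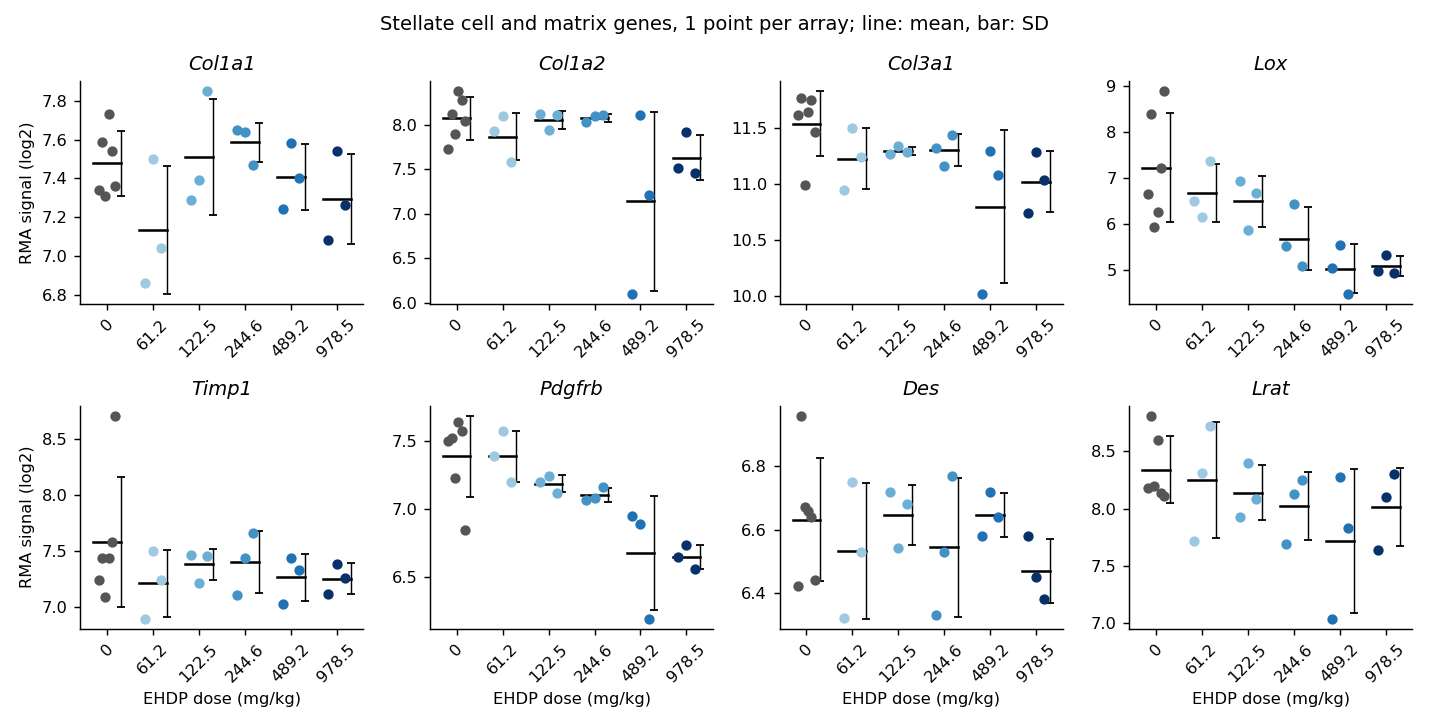
Log2 signal of each of the 8 genes on every array (points), with the group mean (black line) and SD (bar), against the dose group in mg/kg, with vehicle first. Lox lies between 4.95 and 5.34 on the arrays at 978.5 mg/kg, below all 6 vehicle arrays, while Des and Col1a1 overlap the vehicle range at every dose.

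Pdgfrb, the receptor of activated and quiescent stellate cells, also fell at the highest doses. Vehicle levels ran from 6.85 through a median of 7.51 to 7.64, the lowest being replicate 6. The arrays read 7.39, 7.57 and 7.20 at 61.2 mg/kg, 7.20, 7.24 and 7.12 at 122.5 mg/kg, and 7.07, 7.08 and 7.16 at 244.6 mg/kg. All 9 of these lay inside the vehicle range. They read 6.95, 6.89 and 6.20 at 489.2 mg/kg, with 1 below every vehicle array, and at 978.5 mg/kg 6.65, 6.74 and 6.56, with all 3 below.

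The Pdgfrb difference was -0.20 ± 0.16 (limma adjusted p = 0.911) at 122.5 mg/kg and -0.28 ± 0.16 (0.461) at 244.6 mg/kg, neither past the threshold. It was -0.71 ± 0.16 at 489.2 mg/kg, 1.63-fold lower (adjusted p = 0.0158). The difference at 978.5 mg/kg was -0.74 ± 0.16, 1.66-fold lower (95% interval -1.07 to -0.41, adjusted p = 0.00518). The slope was -0.16 ± 0.03 per dose step (adjusted p = 0.000332). The call at 489.2 mg/kg was lost without replicate 3 of that dose (-0.47, adjusted p = 0.131). The call at 978.5 mg/kg and the slope passed in every refit that tested the gene.

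The fall of Pdgfrb was seen on 1 of its 3 probe sets. The set used above, 1370642_s_at, carries the suffix that the maker gives to sets that can match more than 1 transcript. The set 1391394_s_at, which did not fall, carries it too. The other sets, 1379211_at and 1391394_s_at, were both designed on the same accession. They differed from vehicle at 978.5 mg/kg by -0.20 ± 0.09 (adjusted p over all probe sets = 0.236) and -0.05 ± 0.09 (0.827). Their slopes were -0.02 ± 0.02 (0.598) and -0.01 ± 0.01 (0.885) per dose step. With the mean of the 3 sets in place of the brightest, the difference at 978.5 mg/kg was -0.33 (adjusted p = 0.0189), that at 489.2 mg/kg -0.22 (0.221), and the slope -0.06 (0.00717). Which set follows Pdgfrb RNA was not tested.

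The probe sets of Lox moved the same way. The second set, 1368172_a_at, differed by -1.63 ± 0.40 at 489.2 mg/kg (adjusted p over all probe sets = 0.0396) and by -1.29 ± 0.40 at 978.5 mg/kg (0.0579). Its slope was -0.31 ± 0.07 (0.00381). The signal of this second set was dim, with 1, 2 and 1 of 3 arrays under 4.75 at 244.6, 489.2 and 978.5 mg/kg. At 489.2 and at 978.5 mg/kg 2 of its 3 arrays lay below every vehicle array, so the groups overlapped on this set. For Col1a2 the second set, 1387854_at, differed by -0.93 ± 0.23 at 489.2 mg/kg (0.0481) and -0.58 ± 0.23 at 978.5 mg/kg (0.163). For Col1a1 the second set, 1388116_at, differed by -0.06 ± 0.20 at 489.2 mg/kg (0.946) and -0.12 ± 0.20 at 978.5 mg/kg (0.788). Col3a1, Timp1, Des and Lrat had 1 probe set each.

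**Figure D2:**
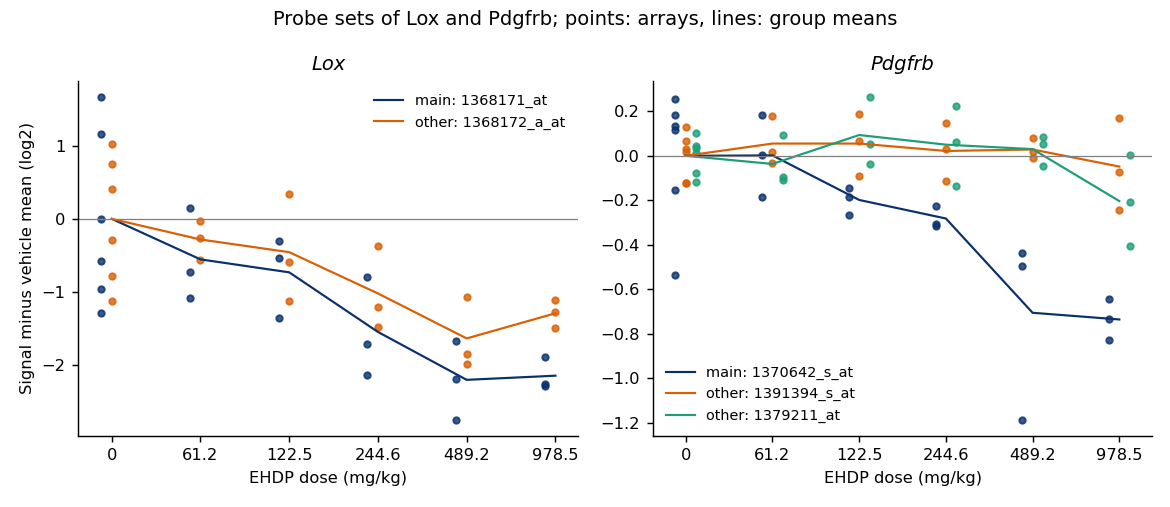
Log2 signal minus the vehicle mean for each probe set of Lox and Pdgfrb, by dose in mg/kg, with points for arrays and lines for group means. Both Lox means lie below 0 at 978.5 mg/kg (-2.14 and -1.29), whereas the mean of 1 Pdgfrb set stands at -0.74 and the other sets at -0.20 and -0.05.

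Of the fibrillar collagen genes, Col3a1 for type III passed in the trend and both type I genes did not, a difference between genes that was not tested. Col3a1 had vehicle levels from 10.99 through a median of 11.64 to 11.77. It read 10.95, 11.50 and 11.24 at 61.2 mg/kg, 11.27, 11.34 and 11.29 at 122.5 mg/kg and 11.32, 11.16 and 11.44 at 244.6 mg/kg. It read 10.02, 11.30 and 11.08 at 489.2 mg/kg, and at 978.5 mg/kg 10.74, 11.29 and 11.04, so that the groups overlapped at every dose. The difference was -0.74 ± 0.21 at 489.2 mg/kg (limma adjusted p = 0.069) and -0.52 ± 0.21 at 978.5 mg/kg (95% interval -0.97 to -0.07, adjusted p = 0.137). The slope, -0.12 ± 0.04 per dose step, passed (adjusted p = 0.0407). That call was lost on leaving out any 1 of vehicle replicates 1, 2, 4, 5 and 6, 61.2 mg/kg replicate 2, or 978.5 mg/kg replicates 1 and 3, with adjusted p from 0.0507 to 0.105. With the treated arrays alone the slope was -0.09 and did not pass (0.485). Nor did it pass with dose in mg/kg in place of rank (0.104), a floor at the 20th percentile (0.0622) or every probe set tested (0.054). The difference at 489.2 mg/kg rested on replicate 1, without which it was -0.35 (adjusted p = 0.587), and it passed without replicate 2 (-0.99, 0.0195) or vehicle replicate 3 (-0.85, 0.0263) and among genes above the median level (0.0478). Without vehicle replicate 6 and 489.2 mg/kg replicate 1 together, it was -0.37 (0.497), the difference at 978.5 mg/kg was -0.53 and passed (0.038), and the slope of -0.09 passed (0.0469).

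Col1a2 had vehicle levels from 7.73 through a median of 8.08 to 8.38. It averaged 7.87 ± 0.26 (SD, n = 3), 8.06 ± 0.10 and 8.08 ± 0.05 at 61.2, 122.5 and 244.6 mg/kg. Its arrays read 6.10, 8.11 and 7.21 at 489.2 mg/kg, the widest spread of any member in any group after Lox in the vehicle group. They read 7.52, 7.92 and 7.46 at 978.5 mg/kg. The difference was -0.94 ± 0.26 at 489.2 mg/kg (adjusted p = 0.0612) and -0.44 ± 0.26 at 978.5 mg/kg (95% interval -0.99 to 0.11, adjusted p = 0.318), with a slope of -0.12 ± 0.05 (0.127). The difference at 489.2 mg/kg also rested on replicate 1, without which it was -0.41 (adjusted p = 0.542), or -0.42 (0.472) with vehicle replicate 6 left out too. It passed without replicate 2 (-1.42, 0.000998), with the mean of both probe sets (-0.93, 0.0444) and among genes above the median level (0.0425).

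Col1a1, the other type I chain, had vehicle levels from 7.31 through a median of 7.45 to 7.73. It averaged 7.13 ± 0.33 (SD, n = 3), 7.51 ± 0.30, 7.59 ± 0.10, 7.41 ± 0.17 and 7.30 ± 0.23 from the lowest dose to the highest. Its groups overlapped throughout. The difference was -0.07 ± 0.14 at 489.2 mg/kg (adjusted p = 0.891) and -0.18 ± 0.14 at 978.5 mg/kg (95% interval -0.48 to 0.12, adjusted p = 0.473). The slope was -0.01 ± 0.03 (0.915), and its sign turned in some refits.

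**Figure D3:**
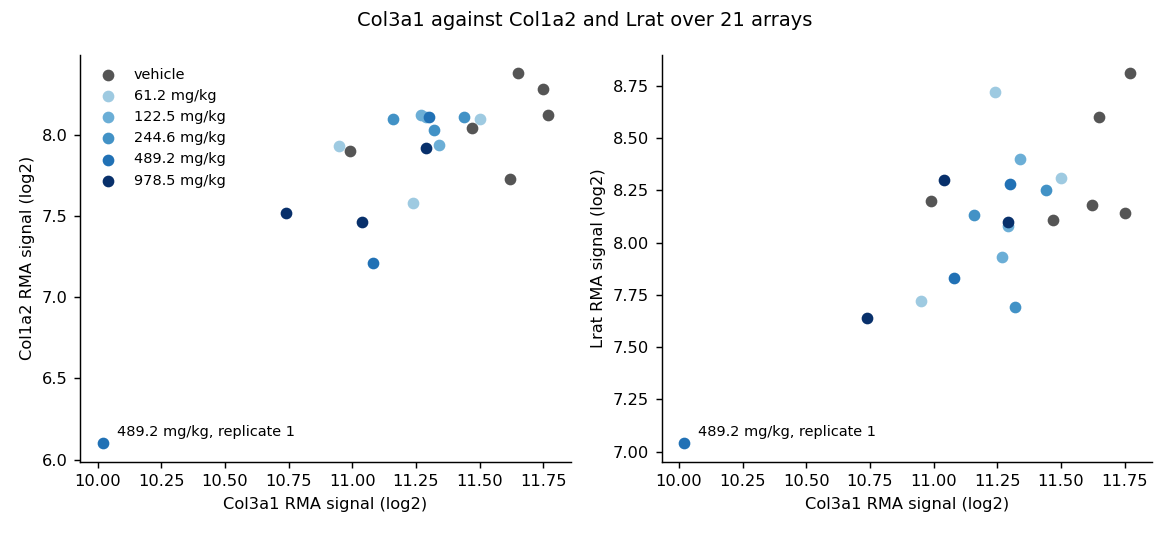
Log2 signal of Col1a2 and of Lrat against that of Col3a1 on the 21 arrays, 1 point per array, shaded by dose group. The array of 489.2 mg/kg replicate 1 stands at the lower left, at 10.02 for Col3a1, 6.10 for Col1a2 and 7.04 for Lrat.

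Timp1, the protease inhibitor, had vehicle levels from 7.09 through a median of 7.44 to 8.71. The highest, replicate 6, stood well above the next vehicle array at 7.58. Group means were 7.22 ± 0.30 (SD, n = 3), 7.38 ± 0.14, 7.40 ± 0.28, 7.27 ± 0.21 and 7.26 ± 0.14 in order of dose, close to the vehicle median. The difference was -0.32 ± 0.24 at 489.2 mg/kg (limma adjusted p = 0.604) and -0.33 ± 0.24 at 978.5 mg/kg (95% interval -0.83 to 0.18, adjusted p = 0.431). The slope was -0.05 ± 0.04 (0.441). Without vehicle replicate 6 the difference at 978.5 mg/kg was -0.10 (adjusted p = 0.699).

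Des and Lrat, used to mark stellate cells in the resting state, passed at no dose and not in the trend by limma. Des had vehicle levels from 6.42 through a median of 6.65 to 6.96 and dose means of 6.53 ± 0.22 (SD, n = 3), 6.65 ± 0.10, 6.55 ± 0.22, 6.65 ± 0.07 and 6.47 ± 0.10. Its difference at 978.5 mg/kg was -0.16 ± 0.11 (95% interval -0.40 to 0.08, limma adjusted p = 0.407). Lrat had vehicle levels from 8.11 through a median of 8.19 to 8.81. It read 7.72, 8.31 and 8.72 at 61.2 mg/kg, 7.93, 8.40 and 8.08 at 122.5 mg/kg and 7.69, 8.13 and 8.25 at 244.6 mg/kg. It read 7.04, 8.28 and 7.83 at 489.2 mg/kg, and at 978.5 mg/kg 7.64, 8.10 and 8.30. The lowest Lrat array in each of the 5 dose groups was the one numbered 1. The difference was -0.62 ± 0.24 at 489.2 mg/kg (adjusted p = 0.213) and -0.32 ± 0.24 at 978.5 mg/kg (95% interval -0.83 to 0.19, adjusted p = 0.448), with a slope of -0.10 ± 0.04 (0.13). Without replicate 1 of 489.2 mg/kg the difference at that dose was -0.28 (adjusted p = 0.848).

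The arrays numbered 1 in the dose groups were low for some other genes too. They were lowest in 4 of the 5 dose groups for Col1a1, Col3a1 and Timp1, and in 3 for Des. For Col1a2 it was 2 groups, for Pdgfrb 1 and for Lox 0. The mean level of the sinusoidal endothelial markers and that of the lymphocyte markers were lowest on them in all 5. For Kupffer cell and for quiescent stellate cell markers it was 4, and for red blood cell and hepatocyte markers (ties counted) 3. For smooth muscle markers and for portal fibroblast and mesothelial markers it was 2, and for bile duct markers 1.

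Counted over the 8 members, 0 were called at 61.2, 122.5 and 244.6 mg/kg by limma, with 1, 0 and 1 at an unadjusted p under 0.05. Of all genes, 0.0141%, 0.113% and 2.95% were called at these doses in either direction, and at 244.6 mg/kg 0.429% fell and 2.52% rose. At 489.2 mg/kg 2 of 8 fell (Lox and Pdgfrb) and 0 rose, against 1.39% of all genes that fell, 1.51% that rose and 2.9% called in either direction. At 978.5 mg/kg 2 of 8 fell, against 4.07% that fell, 6.18% that rose and 10.2% called either way. In the trend 3 of 8 fell, against 5.12% that fell, 6.06% that rose and 11.2% called either way. An F test over the 5 doses called 2 of 8, Lox (adjusted p = 0.0327) and Pdgfrb (0.015), against 5.62% of all genes. Between 978.5 and 489.2 mg/kg limma called 0 of 8, against 0.106% of all genes called. At an unadjusted limma p under 0.05 there were 0 members in that comparison, 5 at 489.2 mg/kg, 3 at 978.5 mg/kg and 5 in the trend. The share of all genes at an unadjusted p under 0.05 is not given here, so the unadjusted counts have no background beside them.

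These counts moved with single arrays and with the choice of probe set. The members were chosen with earlier results of these data known, so their shares describe them and are no test of the set. With the probe sets of each gene averaged, the 2 called at 489.2 mg/kg were Lox and Col1a2, with Pdgfrb at -0.22 (limma adjusted p = 0.221). At 489.2 mg/kg the count was 1 without replicate 1 of that dose, 4 without replicate 2 and 0 without replicate 3. At 978.5 mg/kg it was 1 without replicate 3 of that dose, and without vehicle replicate 6 and 489.2 mg/kg replicate 1 together it was 3. The median difference of the members was -0.67 at 489.2 mg/kg, where the median of all genes was 0.01, and -0.38 at 978.5 mg/kg, where it was -0.02. By sign alone 7 of 8 members were lower at 489.2 mg/kg and 8 of 8 at 978.5 mg/kg, against 47.7% and 55.3% of all genes. At 61.2 mg/kg, where none passed, 8 of 8 were lower too, against 49.6% of all genes, with a member median of -0.26.

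**Figure D4:**
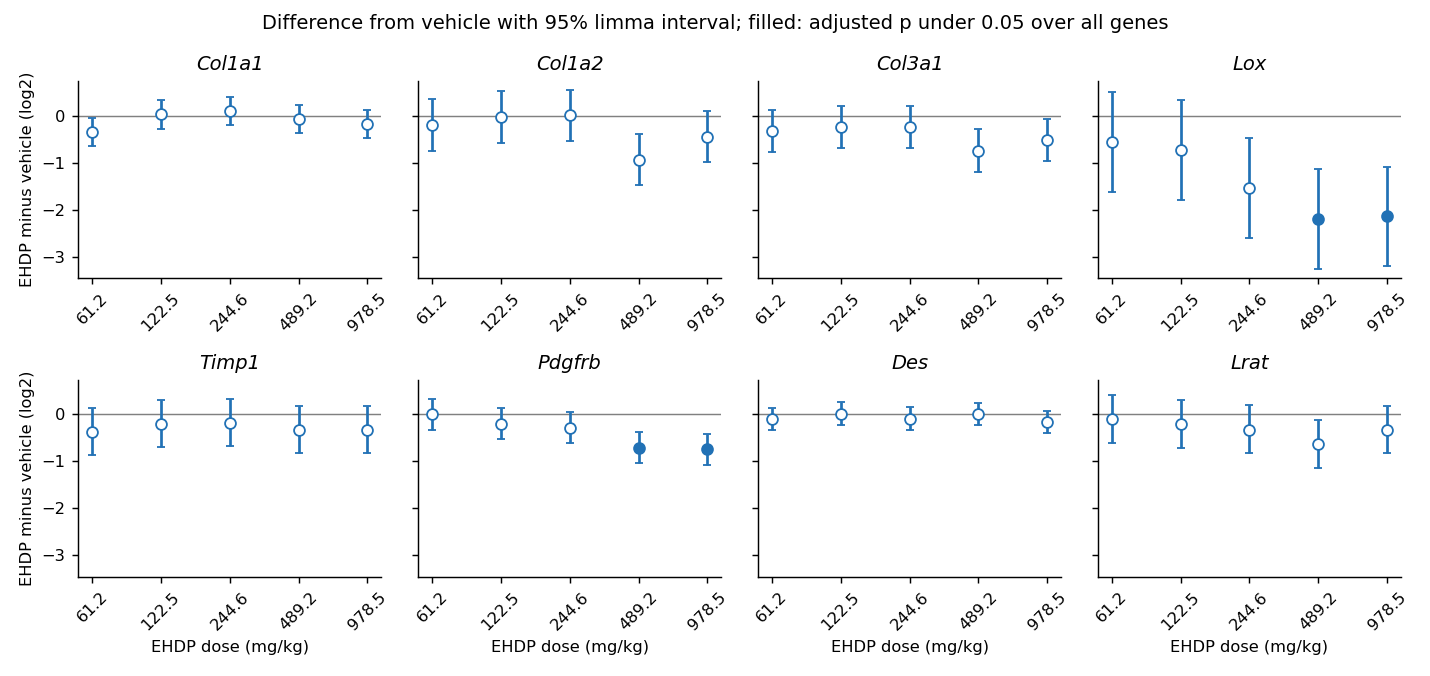
Difference in log2 signal from vehicle of each member at each dose, with 95% limma intervals and filled points where the adjusted p is under 0.05. The Lox intervals lie wholly below 0 at 489.2 and 978.5 mg/kg (-3.20 to -1.08 at the higher), and that of Des at 978.5 mg/kg spans 0 (-0.40 to 0.08).

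Across the 21 arrays, many pairs of members varied together, Col3a1 with Col1a2 and with Lrat by both measures used. Of the 28 pairs of members, 2 had a Pearson correlation of log2 levels past a permutation test after adjustment over the pairs. For Col1a2 and Col3a1 r was 0.84 (permutation p = 0.0001, adjusted 0.0028) and Spearman's rho 0.71 (p = 0.00031, adjusted 0.00616). For Col3a1 and Lrat r was 0.76 (p = 0.00027, adjusted 0.00378) and rho 0.56 (p = 0.00935, adjusted 0.0291). Leaving out the 2 arrays farthest from the median of Col1a2 in the first pair and of Col3a1 in the second lowered r to 0.62 and 0.47. Without vehicle replicate 6 and 489.2 mg/kg replicate 1 it was 0.61 and 0.58. The median r over all 28 pairs was 0.39. By Spearman's rho 13 of the 28 pairs passed after adjustment, among them Col1a2 and Timp1 (rho = 0.71, adjusted permutation p = 0.00616), Col3a1 and Timp1 (0.64, 0.0196) and Lox and Pdgfrb (0.59, 0.0253), so the pairs above are not the sole ones to vary together by rank.

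These correlations include differences between dose groups. After the group mean was taken off each array, 0 of the 28 pairs passed after adjustment and 5 did at an unadjusted permutation p under 0.05. Col1a2 and Col3a1 then had r of 0.77 (permutation p = 0.0216, adjusted 0.151). Col1a1 had r of 0.58 with Col3a1 (permutation p = 0.00384, adjusted 0.0538). Lox and Pdgfrb had r of 0.52 on the levels (adjusted p = 0.0717) and -0.26 on the deviations.

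The genes most like each member in profile over the 21 arrays are given by Pearson r of log2 levels, as a description only. For Col3a1 they were Col14a1 (r = 0.92), Ogn (0.90) and Col6a3 (0.89), all encoding matrix proteins, and without the pair of atypical arrays r was 0.87, 0.83 and 0.84. For Col1a2 they were Pxdn (0.90), a matrix peroxidase, Serpina6 (0.87), which encodes corticosteroid-binding globulin, and Serpinh1 (0.85), the collagen chaperone, and without that pair 0.82, 0.55 and 0.74. For Col1a1 they were Chl1 (0.82), Pnoc (0.79) and Scrg1 (0.76). For Lrat they were Meis2 (0.87), Tek (0.86) and Mrc1 (0.85). Of these, Tek is among the sinusoidal endothelial markers used here, and Mrc1 is known from sinusoidal endothelium and macrophages. For Lox they were Atoh8 (0.84), Lamb1 (0.83) and Cdkn1a (0.80). For Timp1 they were Emp3 (0.91), Anxa1 (0.90) and Anxa2 (0.88), which without the pair of atypical arrays had r of 0.61, 0.70 and 0.67. For Pdgfrb they were Cimap1b (0.89), Nim1k (0.85) and Apoc3 (0.85), and for Des Arhgef4 (0.79), Plcl2 (0.78) and Gpr20 (0.77). The points share arrays and dose groups.

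The wider set of matrix and stellate cell genes came from 10 lists that include the members, also chosen with earlier results known. Of 194 entries 182 were measured, and these genes moved down more often than up. At 978.5 mg/kg 26 fell and 4 rose, that is 14.3% and 2.2%, against 4.07% and 6.18% of all genes. Their median difference was -0.18 and 148 of 182 were lower by sign, that is 81.3% against 55.3% of all genes. In the trend 31 fell and 6 rose, that is 17% and 3.3% against 5.12% and 6.06% of all genes, and with the treated arrays alone 6 fell. The dose of 489.2 mg/kg had 12 falls and 1 rise, that is 6.59% and 0.549% against 1.39% and 1.51%. At 244.6 mg/kg 2 fell, the laminin chain gene Lamb1 (-0.42, limma adjusted p = 0.0367) and Pdgfra (-0.37, 0.035), and 1 rose. These are 1.1% and 0.549%, against 0.429% and 2.52% of all genes. At 978.5 mg/kg the number that fell was 15 without replicate 1 and 9 without replicate 3 of that dose. At 489.2 mg/kg it was 1 without replicate 1, 19 without replicate 2 and 5 without replicate 3 of that dose, and 1 without replicate 1 and vehicle replicate 6 together. The number of all genes called in each refit is not given here, so a loss particular to the lists cannot be read from these counts.

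Among the fibrillar collagens 0 of 8 passed at 978.5 mg/kg by limma, with a median difference of -0.23, and Col3a1 alone passed in the trend. At 978.5 mg/kg 4.07% of all genes fell and 6.18% rose. The list of basement membrane and network collagens also holds other non-fibrillar collagens, such as Col14a1. In it 3 of 12 fell and 0 rose, with a median of -0.43. They were Col6a1 (-0.58 ± 0.13, adjusted p = 0.00708), Col14a1 (-0.66 ± 0.18, 0.0225) and Col18a1 (-0.52 ± 0.13, 0.0148), whose product releases endostatin. Of 20 enzymes that process and crosslink collagen, 3 fell and 0 rose. Beside Lox these were Bmp1 (-0.38 ± 0.10, 0.0183), the procollagen C-proteinase, and Mmp2 (-0.51 ± 0.15, 0.0342), a gelatinase. The Lox relatives Loxl1 (-0.35, 0.146) and Loxl2 (-0.31, 0.0753) did not pass at that dose, nor did the chaperone gene Serpinh1 (-0.35 ± 0.15, 0.168).

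Matrix glycoproteins and proteoglycans had the most calls, with 10 of 34 lower at 978.5 mg/kg, 0 higher and a median of -0.28. Efemp1, Postn and Tnc were dim, at 4.12, 3.91 and 4.26 in the vehicle group, under 4.75. With them counted, all 34 were lower by sign, where 55.3% of all genes were. Those that fell included Lamb1 (-0.55 ± 0.11, limma adjusted p = 0.00276), Fn1 for fibronectin (-0.40 ± 0.09, 0.00553), Efemp2 for the elastic fibre protein fibulin-4 (-0.39 ± 0.08, 0.00393) and Ecm1 (-0.62 ± 0.14, 0.00661). Of 23 matrix proteases and inhibitors 2 fell and 0 rose, against 4.07% and 6.18% of all genes. Those 2 were Mmp2 and Timp2 (-0.61 ± 0.15, 0.0164), a relative of Timp1. A2m, for the protease inhibitor alpha-2-macroglobulin, had the largest difference of that list but a wide error (-1.64 ± 0.79, 0.206), and so did Lum, for lumican, in the glycoprotein list (-1.31 ± 0.56, 0.148).

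At 978.5 mg/kg 4.07% of all genes fell and 6.18% rose. Of 25 stellate cell markers 4 fell at that dose and 0 rose, with a median of -0.16. Beside Pdgfrb and Ecm1 these were Vipr1 (-0.54 ± 0.15, limma adjusted p = 0.0259), a receptor for vasoactive intestinal peptide, and Reln (-0.44 ± 0.13, 0.0398), which encodes reelin. Of 18 markers of activated stellate cells and myofibroblasts 1 fell, Pdgfra (-0.42 ± 0.09, 0.00751), a share near the 4.07% of all genes that fell. Acta2, the smooth muscle actin that defines myofibroblasts, differed by -0.19 ± 0.11 (0.29) and Vim by -0.40 ± 0.20 (0.228), and neither passed. In the PDGF list 2 of 5 fell, both of them receptors, and the ligands Pdgfa (0.11 ± 0.14), Pdgfc (0.14 ± 0.10) and Pdgfd (0.05 ± 0.11) passed no test. Pdgfd stood at 4.07 in the vehicle group, under 4.75, so a fall of it could hardly be seen.

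In the TGF-beta list, the chief pathway of collagen induction in stellate cells, 2 of 22 fell and 1 rose, against 4.07% and 6.18% of all genes. The receptor gene Tgfbr1 (-0.44 ± 0.13, limma adjusted p = 0.0388) and Ltbp4 (-0.58 ± 0.16, 0.0278), for a protein that binds latent TGF-beta, fell, and the signal transducer Smad2 (0.29 ± 0.08, 0.0291) rose. The ligand Tgfb1 (-0.19 ± 0.15, 0.455) and the target Ccn2 (0.23 ± 0.32) passed no test. The retinoid list, which shares its subject with Lrat, went both ways, with 3 of 25 higher and 3 lower, against the same shares of all genes. Aldh1a1, a retinaldehyde dehydrogenase that hepatocytes also express, rose by 1.30 ± 0.15 (adjusted p = 1.18e-05), Dhrs3 by 0.43 ± 0.11 (0.0205) and Rdh10 by 0.40 ± 0.09 (0.00576). Aldh1a1 also rose at 122.5 mg/kg (0.81, 0.0279), 244.6 mg/kg (1.12, 0.000224) and 489.2 mg/kg (1.02, 0.00051). The retinoic acid receptor gene Rara fell (-0.33 ± 0.07, 0.00569).

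**Figure D5:**
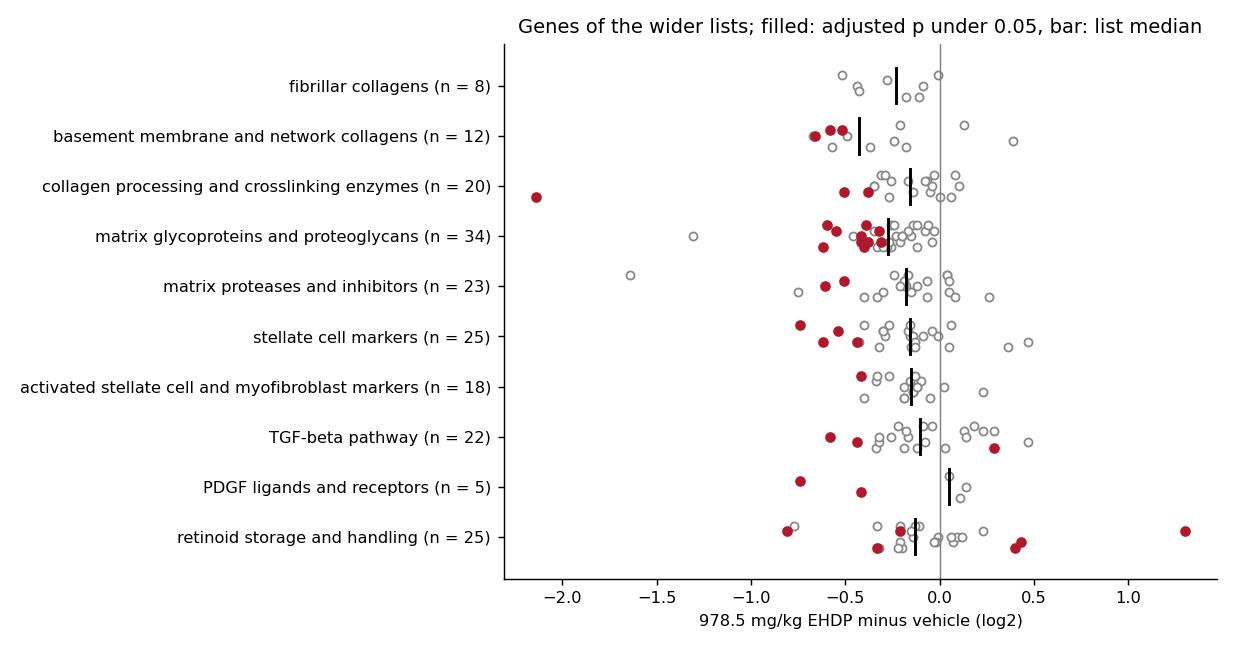
Difference in log2 signal at 978.5 mg/kg from vehicle for every measured gene of the 10 lists, filled where the limma adjusted p is under 0.05, with a bar at each list median. The medians run from -0.43 for basement membrane and network collagens to 0.05 for PDGF ligands and receptors.

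The levels of several other cell types' markers also lay below the vehicle mean at 978.5 mg/kg. Of all genes 4.07% fell and 6.18% rose at that dose by limma. The mean level of 9 Kupffer cell and macrophage markers relative to vehicle ranged from -0.32 to 0.24 on vehicle arrays and from -0.85 to -0.42 at 978.5 mg/kg, and 1 of the 9 fell. That of 5 red blood cell markers ranged from -0.56 to 0.36 and from -1.25 to -0.63, and 3 of the 5 fell. For 9 sinusoidal endothelial markers the ranges were -0.42 to 0.27 and -0.51 to -0.05, for 10 lymphocyte markers -0.16 to 0.11 and -0.38 to -0.17, and 0 of either list passed by limma. For 8 smooth muscle markers they were -0.11 to 0.08 and -0.31 to -0.11, with 1 fall. The 11 markers of quiescent stellate cells ranged from -0.17 to 0.19 and from -0.35 to -0.12, with 2 falls, Pdgfrb and Reln. One of these, Ngfr, stood at 4.38 in the vehicle group, under the 20th percentile of all levels. The 7 hepatocyte markers ranged from -0.05 to 0.06 on vehicle arrays and stood at -0.04 on all 3 arrays at 978.5 mg/kg. Of 7 bile duct markers 1 rose, Epcam (0.64 ± 0.13, limma adjusted p = 0.00324), and 0 of 8 portal fibroblast and mesothelial markers passed, with a range of -0.10 to 0.16 on vehicle arrays and -0.17 to 0 at 978.5 mg/kg. The part of cell makeup in the member results was not tested.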

How the data were processed

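Rat liver was measured on 21 Affymetrix arrays, from 100 ng of total RNA labelled with biotin. The values were log2 signals deposited by the authors, made by robust multi-array averaging (RMA) per the submitters' processing notes, whose version is not given in the sources used here. No further scaling was applied. The probe annotation named a single gene for 20832 of the 31099 probe sets, more than 1 gene for 436 and no gene for 9831. The first of these covered 14218 genes. A gene was represented by its probe set with the highest mean, and 4526 genes had a choice.

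The members, gene lists and markers were chosen with earlier results of these data known. Comparisons were fitted with limma 3.58.1 in R 4.3.3, with 1 mean per group over 21 arrays and Benjamini-Hochberg adjustment over all genes at 0.05. The trend used dose rank from 0 to 5. Same-numbered arrays of different groups were not treated as pairs in the main fits. The r of their deviations ran from -0.23 to 0.37 (median 0.06), against -0.33 to 0.33 (median -0.02) for different numbers. The labels do not say whether a number marks a shared factor. Correlations used 100000 permutations, within groups for deviations. Of each wider list the 4 called genes with the smallest p at 978.5 mg/kg and the 2 in the trend were eligible to be named, or the 2 largest differences where none was called. Other list genes named without a call were picked after their values were seen. Lists overlap. Tables and plots used Python 3.11.15, pandas 2.3.3 and matplotlib 3.10.9. The pipeline was tested on simulated data. Precision is limited by the small number of arrays, 3 at each dose. Alternatives tried were other probe set rules, filters, floors, array weights, variance options, centring, the arrays fitted, a replicate block and leaving out each array. Leaving out vehicle replicate 6 and 489.2 mg/kg replicate 1 together, and counts over the wider lists, were added after seeing the data.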

Additional observations from a re-analysis of the deposited data

Results flagged for a closer look

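Timp1 on vehicle replicate 6 stood at 8.71, and the next highest vehicle array at 7.58. The gap was 0.70 of the range of the 6 vehicle arrays, above Dixon's 95% critical value of 0.625. The test was made for the 8 members in the vehicle group, and chance passes about 1 in 20 such tests. On the same array Lox was the highest of the vehicle group at 8.89 and Pdgfrb the lowest at 6.85.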

How the results depend on the processing

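At 489.2 mg/kg the 2 members called became 1 with array weights, a floor at the 20th percentile, the replicate block, or without vehicle replicate 6 and 489.2 mg/kg replicate 1 together (chosen after seeing the data), and 0 with only the arrays compared. Genes of the wider lists that fell there went from 12 to 5 with weights, 2 with the block, 0 with only the arrays compared and 1 without that pair. Leaving out 1 array gave 0 to 4 members and 1 to 19 wider genes at 489.2 mg/kg, 1 to 3 and 9 to 30 at 978.5 mg/kg, 2 to 3 and 22 to 37 in the trend, and 1 to 3 members in the F test. Among genes above the median level 3 members were tested, without Lox and Pdgfrb, and 0 were called at 978.5 mg/kg, 0 by the F test and 1 in the trend, with 16 wider genes lower at 978.5 mg/kg. The F test called 1 member with the mean of probe sets, trend and robust options, weights, the floor, the block, or without the pair of arrays. With treated arrays only, 6 wider genes fell in the trend. Correlated pairs of deviations were 1 with the mean of probe sets and 2 with arrays centred on their medians, against 0. The sign turned for Timp1 at 489.2 mg/kg with the block (0.01) and without the pair of arrays (0.02), for its slope with the block (0.0047), for Des at 489.2 mg/kg with the block (-0.04) and without 1 array (-0.03 to 0.08), and for Col1a1 at 489.2 mg/kg without 1 array (-0.16 to 0.01). The Col1a1 slope turned with the block (0.01), with treated arrays only (0.02) and without 1 array (-0.02 to 0.01). The cause was not tested. With the replicate block Lox at 489.2 mg/kg lost its call (-1.96, limma adjusted p = 0.051), as did the Col3a1 slope (0.125), and the Lrat slope passed (0.0477). The labels' numbers are not shown to pair rats. Of the 18 arrays numbered 1 to 3, vehicle arrays included, 10 were most like those of their own number. That is more than an even spread over these numbers would give, and whether it exceeds chance was not tested. Signal under 4.75 limits what can be read of Lox at the highest doses.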
